A study of Danio rerio with 12 samples.

Results

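The transcription factors *gbx1*, *gbx2*, *en1b*, *en2a*, *en2b*, *egr2b* and *mafba* pattern the hindbrain and the boundary between the midbrain and the hindbrain. They were followed in microdissected pieces of zebrafish embryos that did or did not overexpress *dmrt2a*. A gene was taken as measured where a probe set of the array carried its symbol, or an older symbol of it, and no other symbol. Of the 7 genes, 6 were measured, by 9 probe sets, among 20635 named genes and 75212 probe sets in all. No probe set was matched to *mafba*, the zebrafish *valentino* gene, and it is not analysed here.

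The pieces came from 4 groups of 3 arrays each, and each array held a pool of 100 pieces. Transgenic embryos were Tg(hsp70:HA-*dmrt2a*), from an outcross of homozygous carriers of a line chosen for a single copy. In that line a heat-shock promoter drives HA-tagged *dmrt2a*. Control embryos were wildtype, and all lines were of Tubingen background. All embryos, controls included, were kept at 28 °C, received 39 °C for 30 min at bud stage, and were dissected from 2 h to 2 h 30 min afterwards, at 3 to 4 somites. Region 1 lay between the first and the last somite, with the tissue beside and below the somites, and Region 2 lay behind the last somite, with the tailbud, the presomitic mesoderm and Kupffer's vesicle, the left-right organizer. The question was which genes respond to *dmrt2a* in each region.

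In vertebrates, *Gbx* and *Otx* factors repress each other, and the border between them places the midbrain-hindbrain boundary, a signalling centre that secretes Wnt and Fgf ligands. Engrailed factors act at that boundary, and in zebrafish they also mark the muscle pioneers, a few cells of each somite next to the notochord. Behind the boundary the hindbrain divides into rhombomeres. *egr2b*, also called *krox20*, acts in a pair of non-adjacent rhombomeres, and *mafba* acts in and next to the hinder one of them. The boundary and the front of the hindbrain lie ahead of the first somite, where the labels place the front edge of Region 1.

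The signals are log2 values. The median over all probe sets was 3.47 to 3.49 on the arrays of Region 1 and 3.29 to 3.32 on those of Region 2. *dmrt2a* itself was 0.35 higher in transgenic than in control Region 1 on the log2 scale (adjusted p = 0.0991) and 1.40 higher in Region 2 (adjusted p = 0.00352), in limma fits. The effect on *dmrt2a* in Region 2 minus that in Region 1 was 1.04 (adjusted p = 0.000825 by limma). In control pieces, 22 of 27 tailbud and presomitic genes were lower in Region 1 than in Region 2, among them *msgn1*, at 5.26 against 9.94, and *tbx16*, at 5.91 against 10.46. Of 21 somite genes, 12 were higher in Region 1 and 4 lower, and the one with the smallest p, *uncx4.1*, was at 6.39 against 3.51. Among all probe sets, 19% were called higher in control Region 1 and 8.68% lower. Of 29 genes of the forebrain and midbrain, 10 were higher in Region 1 and 0 lower. Their linear signals summed to 946 to 984 on the control arrays of Region 1 and 590 to 617 on those of Region 2. A mean signal above 5 was reached by 6 of the 29 in control Region 1 and 5 in control Region 2. The forebrain and midbrain gene *otx2b* was at 4.00 in Region 1 and 3.09 in Region 2.

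*gbx2* fell in Region 1 of the transgenic embryos and was the single gene among the 6 to pass the test there. Its signals were 6.66, 6.81 and 6.58 on the 3 control arrays of Region 1 and 5.11, 5.09 and 5.00 on the 3 transgenic arrays. The groups lay well apart, with every transgenic array below every control array. The log2 difference was -1.62 (SE 0.0836, 95% interval -1.82 to -1.42), a fold change of -3.07, with an adjusted p of 0.00251 by limma over all probe sets. By p it stood at place 15 among the probe sets that were lower. The call held in 10 of 11 other ways of running the test and not with the replicate number as a term (adjusted p from 5.5e-05 to 0.0647). In these pools of tissue, fewer cells with *gbx2* transcript and less transcript per cell cannot be told apart.

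In Region 2 the *gbx2* signal was lower than in Region 1. It was 4.01, 4.33 and 4.11 on the control arrays and 4.54, 4.16 and 4.37 on the transgenic arrays. The 2 groups overlapped, and the difference was 0.21 on the log2 scale (SE 0.129, 95% interval -0.10 to 0.51, adjusted p = 0.643 by limma). From the highest mean to the lowest, the *gbx2* groups were control Region 1 at 6.68 (SD 0.119), transgenic Region 1 at 5.06 (SD 0.058), transgenic Region 2 at 4.35 (SD 0.188) and control Region 2 at 4.15 (SD 0.166), each with n = 3. The last pair overlapped and the other neighbours did not.

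The transgenic effect on *gbx2* differed between the regions. In the fit of all 12 arrays, the effect in Region 2 minus that in Region 1 was 1.83 on the log2 scale (SE 0.158, 95% interval 1.48 to 2.17, adjusted p = 0.00133 by limma). With genotype and replicate number as a block across the regions, a fit chosen after seeing the data, the adjusted p was 0.0355 by limma. Control Region 1 exceeded control Region 2 by 2.54 on the log2 scale, and transgenic Region 1 exceeded transgenic Region 2 by 0.71. Control Region 2 had a *gbx2* mean of 4.15, where the medians of the Region 2 arrays were 3.29 to 3.32. Whether a fall as large as that in Region 1 could show from that level was not tested. With each of the 12 arrays left out in turn, the difference of the effects lay between 1.73 and 1.92 (adjusted p from 0.00186 to 0.00764 by limma).

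**Figure D1:**
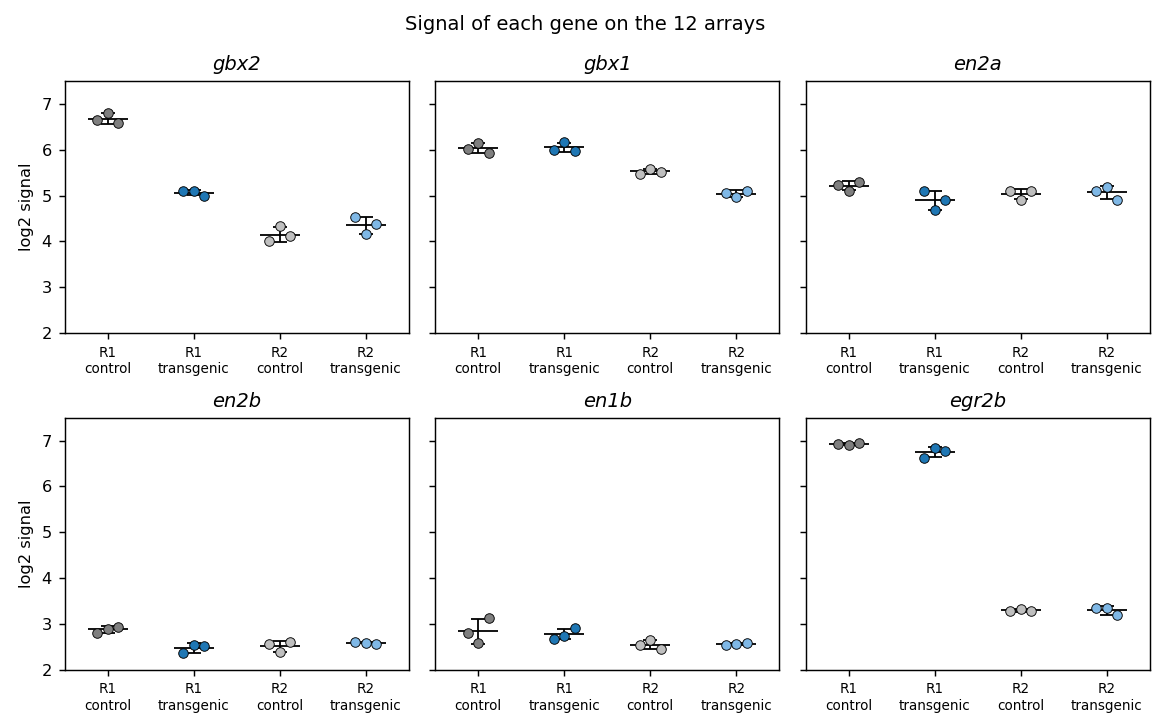
Log2 signal (y axis) of *gbx2*, *gbx1*, *en2a*, *en2b*, *en1b* and *egr2b* in control and transgenic pieces of Region 1 (R1) and Region 2 (R2), by the brightest probe set of each gene. Points are arrays, the wide bar is the mean and the whiskers are 1 SD (n = 3). The 3 transgenic Region 1 arrays of *gbx2*, at 5.00 to 5.11, lie below the control arrays at 6.58 to 6.81, and *egr2b* is near 3.30 in both groups of Region 2.

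*gbx1*, the paralogue that in zebrafish is transcribed in the prospective hindbrain before *gbx2*, was not called in either region. In Region 1 it was at 6.02, 6.15 and 5.94 on the control arrays and at 5.99, 6.17 and 5.98 on the transgenic arrays. These values overlapped, with a log2 difference of 0.01 (SE 0.0882, 95% interval -0.20 to 0.22, adjusted p = 0.977 by limma). A fall of the size seen for *gbx2* lies outside that interval.

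In Region 2, *gbx1* was at 5.48, 5.59 and 5.52 on the control arrays and at 5.05, 4.96 and 5.11 on the transgenic arrays. All transgenic arrays were below all control arrays. The log2 difference was -0.49 (SE 0.0743, 95% interval -0.67 to -0.31), a fold change of -1.40, and its adjusted p of 0.0644 by limma missed the threshold of 0.05. It passed in 4 of 11 other ways of running the test, with adjusted p-values from 0.00968 to 0.272 by limma or the test of the methods. The effect in Region 2 minus that in Region 1 was -0.50 on the log2 scale (SE 0.111, adjusted p = 0.139 by limma). The order of the *gbx1* means was transgenic Region 1 at 6.05 and control Region 1 at 6.04, which overlapped, then control Region 2 at 5.53 and transgenic Region 2 at 5.04.

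None of the 3 engrailed genes passed the test in either region. *en2a* is held by 3 probe sets, and its 2 brightest carry the same 12 values. These were 5.24, 5.11 and 5.30 in control Region 1 and 5.11, 4.69 and 4.90 in transgenic Region 1. One transgenic array reached the lowest control array, and the log2 difference was -0.31 (SE 0.12, 95% interval -0.60 to -0.02, adjusted p = 0.365 by limma). In Region 2 the *en2a* values were 5.11, 4.91 and 5.10 in controls and 5.11, 5.19 and 4.91 in transgenic pieces, a difference of 0.03 (adjusted p = 0.959). Every neighbouring pair among its 4 group means, 5.21, 5.07, 5.04 and 4.90, overlapped. The dimmer probe set of *en2a* had group means between 2.55 and 2.82. It gave -0.21 in Region 1, where its arrays did not overlap (adjusted p = 0.295), and -0.03 in Region 2 (adjusted p = 0.956).

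*en2b* was dim on all arrays, with signals under the array medians. In Region 1 it was at 2.80, 2.88 and 2.94 on the control arrays and at 2.36, 2.55 and 2.52 on the transgenic arrays. The transgenic arrays all lay below the controls. The log2 difference was -0.40 (SE 0.0811, 95% interval -0.59 to -0.20, adjusted p = 0.127 by limma), and it passed in 2 of 10 other ways of running the test. In Region 2 it was at 2.56, 2.38 and 2.60 in controls and at 2.60, 2.59 and 2.57 in transgenic pieces. The difference there was 0.07 (adjusted p = 0.814), and that between the regions was 0.47 (SE 0.11, adjusted p = 0.161 by limma). Control Region 1, at 2.88, was thus the highest of the 4 *en2b* groups, and it overlapped none of the others. Each neighbouring pair among the other means, 2.59, 2.51 and 2.48, overlapped.

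*en1b* was also dim. Its signals were 2.81, 2.58 and 3.13 in control Region 1, and 2.68, 2.74 and 2.90 in transgenic Region 1. In Region 2 they were 2.54, 2.65 and 2.46 in controls and 2.54, 2.57 and 2.58 in transgenic pieces. The transgenic and control groups overlapped in both regions, with log2 differences of -0.07 in Region 1 (95% interval -0.42 to 0.29, adjusted p = 0.897 by limma) and 0.01 in Region 2 (95% interval -0.17 to 0.19, adjusted p = 0.975). The dimmer probe set of *en1b* gave -0.11 and -0.05. No background signal was given with these values, so whether *en1b* and *en2b* were detected was not assessed.

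*egr2b* had a high signal in Region 1 and a low one in Region 2, and it was not called for the transgene in either. Its signals were 6.92, 6.90 and 6.95 on the control arrays and 6.63, 6.84 and 6.78 on the transgenic arrays of Region 1. Each transgenic array was below each control array, by a small step. The log2 difference was -0.17 (SE 0.0761, 95% interval -0.36 to 0.01, adjusted p = 0.42 by limma). In Region 2 *egr2b* was at 3.28, 3.33 and 3.28 in controls and at 3.35, 3.35 and 3.19 in transgenic pieces, with a difference of 0.00 (95% interval -0.18 to 0.18, adjusted p = 0.999). The effects in the 2 regions differed by 0.17 (adjusted p = 0.657). The Region 2 signals were near the medians of those arrays, 3.29 to 3.32, and whether *egr2b* was detected there was not assessed.

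**Figure D2:**
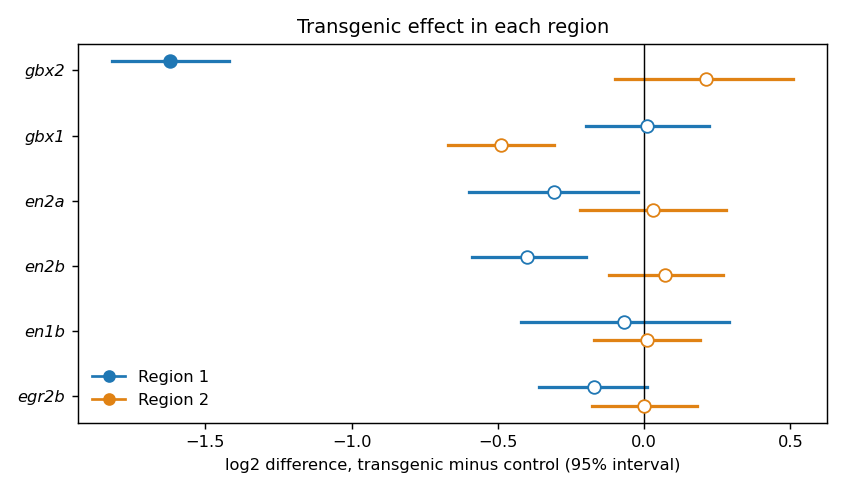
Log2 difference of transgenic minus control (x axis) for each gene in Region 1 and Region 2, with 95% intervals from limma. Filled points passed an adjusted p under 0.05. Only *gbx2* in Region 1, at -1.62, is filled. The intervals of *gbx1* in Region 2, at -0.49, and of *en2b* and *en2a* in Region 1, at -0.40 and -0.31, leave out 0 without passing.

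Over the 6 genes, 1 was called lower in Region 1 and 0 higher, where 0.344% of all probe sets were called lower and 0.162% higher. Among named genes, 0.645% were called lower and 0.31% higher. At the fold of 2 that the methods also asked for, *gbx2* still counted, with 0.0824% of probe sets lower. The median of the 6 log2 differences in Region 1 was -0.24, beside -0.00543 over all probe sets. Without overlap between the arrays were 3 of the 6, all lower (*gbx2*, *en2b* and *egr2b*), and 19.3% of all probe sets had no overlap in either direction. An unadjusted p under 0.05 was reached by 3 of the 6 and by 12.5% of all probe sets.

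In Region 2, 0 of the 6 genes were called by limma, and 1, *gbx1*, had an unadjusted p under 0.05, as did 10.8% of all probe sets. The test of the methods likewise called 0. Of all probe sets 0.4% were called lower there, 0.11% lower with a fold of 2, and 0.0678% higher. Among named genes, 0.872% were called lower and 0.141% higher. The median difference of the 6 genes was 0.02, beside -0.00595 over all probe sets. *gbx1* alone had no overlap, in a comparison where 17.2% of probe sets had none. For the difference of the effects between regions, *gbx2* was the single call, in the direction in which 0.0638% of probe sets were called. In the other direction 0.128% were called. Among named genes these shares were 0.116% and 0.271%.

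The control pieces gave the position of the transcripts without the transgene. Of the 6 genes, 4 were higher in Region 1 than in Region 2 (*egr2b*, *gbx2*, *gbx1* and *en2b*) and 0 lower, where 19% of all probe sets were called higher and 8.68% lower. Among named genes, 26% were called higher and 11.7% lower. The same 4 of the 6 genes had no overlap between the control arrays, as did 43.3% of all probe sets. The *egr2b* log2 difference was 3.63 (SE 0.0714, a fold of 12.3, adjusted p = 1.68e-10 by limma), and that of *gbx2* was 2.54 (SE 0.112, a fold of 5.8, adjusted p = 5.4e-08). *gbx1* differed by 0.51 (SE 0.0785, adjusted p = 0.000825) and *en2b* by 0.36 (SE 0.0776, adjusted p = 0.00567). The rhombomere gene *egr2b* was thus high in Region 1, whose labelled front edge is the first somite. How far forward the pieces reached was not tested.

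*en1b* and *en2a* were not called between the control regions, at 0.29 (adjusted p = 0.098 by limma) and 0.17 (adjusted p = 0.304), although the dimmer *en2a* probe set was, at 0.24 (adjusted p = 0.0344). The regions carry an offset in their array medians. The median difference over all probe sets was 0.0578 as deposited and -0.125 after each array was centred on its own median. Centring left *en2b* at 0.18 (adjusted p = 0.0896 by limma), so its call rests on the scaling, and it turned *en2a* to -0.01. The other 3 calls held under each scaling run, although *gbx1* shrank from 0.51 to 0.32, and to 0.28 with arrays centred on the named probe sets.

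Genes whose signals followed those of the 6 were sought over the 12 arrays, among 3612 named genes with an SD of at least 0.3, for the 4 genes with a group mean above 5. These 12 arrays are 4 groups of 3, so a likeness mostly reflects the group means. Closest to *gbx2* was *pim3*, a serine/threonine kinase gene (Pearson r = 0.986), with means of 7.13 in control and 6.59 in transgenic Region 1 and 6.27 and 6.38 in control and transgenic Region 2. Next were *nav1a* (r = 0.975), a neuron navigator gene, and *plekhh1* (r = 0.971). All 3 had lower means in transgenic than in control Region 1, which follows from their choice by likeness to *gbx2* and is no separate result.

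Closest to *egr2b* were *lmx1bb*, a LIM homeobox gene of the midbrain-hindbrain boundary (r = 1.000 as rounded), *tns2b* (r = 0.999) and *wnt4* (r = 0.999). Their pattern was the region itself, with *lmx1bb* at 5.65 and 5.52 in control and transgenic Region 1 and at 3.37 and 3.39 in Region 2. Closest to *gbx1* were *slc26a5* (r = 0.985), *prdm12b*, a zinc finger gene of neural progenitors (r = 0.980), and *zgc:92429* (r = 0.980). *prdm12b* was at 7.85 and 7.61 in control and transgenic Region 1 and at 4.89 and 3.18 in Region 2. Its lowest mean, like that of *gbx1*, was in transgenic Region 2, a pattern for which it was picked. Nothing followed *en2a* so closely: the best was *shhb*, a hedgehog ligand gene (r = 0.763), before *lgals3bp.3* (r = 0.664) and *olfcq3* (r = 0.650).

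The other genes of these territories moved unevenly in Region 1. Of 42 measured genes on a list of the hindbrain and rhombomeres, 5 were lower, 1 was higher and 36 were not called, with a median log2 difference of -0.10. Of all probe sets, 0.344% were called lower and 0.162% higher, and of named genes 0.645% and 0.31%. At an unadjusted p under 0.05 by limma, 17 of the 42 were lower and 6 higher, beside 12.5% of all probe sets in either direction. The genes called lower included *cyp26c1*, a retinoic acid-degrading enzyme, at 5.01 in transgenic and 6.73 in control pieces (log2 difference -1.71, adjusted p = 0.00359 by limma). *fgf3*, an Fgf ligand of the hindbrain, was at 4.89 against 6.52 (-1.62, adjusted p = 0.00359), a step of the same size as that of *gbx2*. *irx7*, an Iroquois homeobox gene, was at 6.55 against 7.65 (-1.10, adjusted p = 0.0161). *tll1* (-1.02, adjusted p = 0.00493) is a tolloid-like protease of Bmp signalling rather than a rhombomere gene. The remaining 2 called genes are named although they fall outside the rule for named genes: *hoxb1a*, a rhombomere Hox gene, was lower (-0.77, adjusted p = 0.02), and *sp8a*, a zinc finger gene, was higher (0.83, adjusted p = 0.0233).

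Leaving out any 1 of the 6 Region 1 arrays reduced the calls on the hindbrain list from 6 to 2 or 3, and the one-way test of the methods called 3. Over all 11 other settings the count ran from 0 to 12. *gbx2* stayed called in all 6 of these smaller fits (log2 difference -1.67 to -1.55, adjusted p from 0.021 to 0.0298 by limma).

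Of the 25 other boundary genes measured, 1 was called in Region 1, *sp5a*, a zinc finger target of Wnt signalling, which was higher (0.53, adjusted p = 0.045 by limma), and leaving out any 1 of the 6 arrays ended that call. The count ran from 0 to 4 over the 11 other settings. In control pieces the linear signals of this list summed to 5313 to 5462 in Region 2 and 2855 to 2979 in Region 1. The list is thus not particular to the boundary. The median log2 difference of the 25 genes in Region 1 was -0.10. At an unadjusted p under 0.05 by limma, 10 of them were lower and 6 higher, beside 12.5% of all probe sets in either direction. Next by p was *wnt3a*, a Wnt ligand, at 5.57 in transgenic and 6.13 in control pieces (-0.56, adjusted p = 0.0608). The textbook boundary genes *pax2a*, *wnt1* and *fgf8a*, picked after their values were seen, gave -0.22, -0.10 and -0.28 (adjusted p = 0.282, 0.737 and 0.303). The paralogues of the listed genes, picked likewise, were not called: *en1a* gave -0.04, *egr2a* -0.03 and *mafbb*, the paralogue of *mafba*, -0.48 (adjusted p = 0.943, 0.93 and 0.2).

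**Figure D3:**
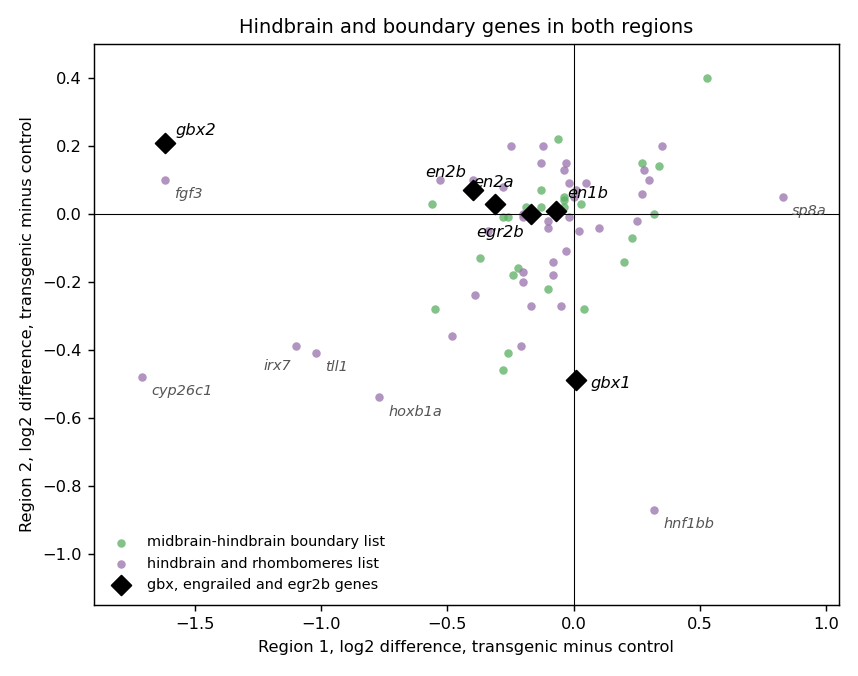
Log2 difference of transgenic minus control in Region 1 (x axis) and Region 2 (y axis) for genes of the boundary and hindbrain lists (circles) and the 6 listed factors (diamonds); the regions share no arrays. *gbx2* lies beside *fgf3* at the left, with -1.62 in Region 1 and 0.21 in Region 2, and *gbx1* lies on the zero line of Region 1 at -0.49 in Region 2.

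In Region 2, 1 of the 42 hindbrain genes was lower, 0 were higher, and 0 of the 25 boundary genes were called by limma, with medians of -0.02 and 0.00. Of all probe sets, 0.4% were called lower there and 0.0678% higher, and of named genes 0.872% and 0.141%. Of the boundary genes 8 had an unadjusted p under 0.05, 6 lower and 2 higher, beside 10.8% of all probe sets. Of the hindbrain genes, 10 were lower and 1 higher at that p. The test of the methods called 0 boundary genes. Over the 11 other settings, 0 to 3 boundary genes and 0 to 4 hindbrain genes were called. The called gene was *hnf1bb*, a homeobox gene, at 6.88 in transgenic and 7.75 in control pieces (-0.87, adjusted p = 0.0144 by limma), a call that ended when any 1 of the 6 arrays was left out. *mafbb* was at 4.35 against 4.71 (-0.36, adjusted p = 0.256). For the difference between the regions, 3 hindbrain genes were called in the direction of *gbx2* (*fgf3* at 1.72, *cyp26c1* at 1.24 and *tll1* at 0.62) and 2 in the other (*hnf1bb* at -1.20 and *sp8a* at -0.78). Of all probe sets, 0.0638% were called in the direction of *gbx2* for that difference and 0.128% in the other. Of 49 neural plate genes, 3 were called in each direction. The values of those 49 ran from -0.78 to 2.31, beside 1.83 for *gbx2*. With 1 of the 12 arrays left out, from 2 to 4 genes of the hindbrain list were called, and over 10 other settings from 1 to 6.

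In control pieces, 28 of the 42 hindbrain genes were higher in Region 1 and 5 lower, with a median of 0.74 on the log2 scale. *hoxb1a* was at 8.24 against 3.09, *meis3*, a Hox cofactor gene, at 10.28 against 5.81, and *irx7* at 7.65 against 3.52. Among all named genes, 26% were called higher in control Region 1 and 11.7% lower. The 25 boundary genes were divided, 8 higher and 10 lower, with a median of -0.10. Of these, *lmx1bb* was higher in Region 1 (2.28), and *spry4* and *il17rd*, feedback inhibitors of Fgf signalling, were lower (-2.26 and -1.49), as was *sp5l*, a zinc finger gene (-1.57).

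Genes of other tissues were also called in transgenic Region 1. Of all probe sets, 0.344% were called lower there and 0.162% higher, and of named genes 0.645% and 0.31%. Of 27 tailbud and presomitic genes, 4 were higher in transgenic Region 1 and 0 lower: *tbx16* (0.95), *tbx16l* (0.75), *her7* (0.58) and *msgn1* (0.53). The linear signals of that list summed to 5221 to 5308 on the transgenic arrays and 4511 to 4798 on the controls. The hindbrain list summed to 10729 to 10790 against 11326 to 11843, and the forebrain and midbrain list, of which 3 genes were lower and 1 higher of 29, to 788 to 812 against 946 to 984. The sums of these 3 lists did not overlap. Those of the boundary list, 2853 to 2966 against 2855 to 2979, of the neural plate list, 9067 to 9257 against 9181 to 9358, and of the somite list, 3616 to 3732 against 3571 to 3652, did. The sums of the remaining lists lay apart as well. Transgenic sums were lower for neural crest and placodes, at 4900 to 4973 against 5525 to 5682. They were lower for primitive blood and macrophages, at 1160 to 1210 against 1321 to 1391, and for muscle pioneers and notochord, at 1494 to 1578 against 1584 to 1632. They were higher for hatching gland and prechordal plate, at 520 to 537 against 473 to 512. Bright genes weigh most in such sums. The median level went against the sum for the tailbud list, at 5.92 in transgenic and 6.13 in control pieces. It did so too for the muscle pioneer list (6.06 against 5.70) and the hatching gland list (4.79 against 4.86). For the hindbrain, forebrain and midbrain, neural crest and blood lists, the median level was lower in transgenic pieces, as the sum was. The middle gene can differ between the groups, so the median of each gene's own log2 difference is given as well. It went with the sum for the tailbud (0.15), hatching gland (0.02) and muscle pioneer lists (-0.06). So it did for the hindbrain list (-0.10) and the forebrain and midbrain list (-0.07). For neural crest (0.01) and blood (0.05), both near 0, it did not. Of 49 neural plate genes 7 were lower and 5 higher, and the log2 differences on that list ran from -3.35 to 0.64. Its largest fall was thus larger than that of *gbx2*, at -1.62. Of 23 neural crest and placode genes 3 were lower and 0 higher. Of 10 hatching gland and prechordal plate genes 0 were lower and 1 was higher, and of 21 somite genes 2 were lower and 0 higher. With any 1 of the 6 arrays left out, the 4 forebrain and midbrain calls fell to 0 and the 12 neural plate calls to 3. The part of these shifts in the *gbx2* result was not tested.

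**Figure D4:**
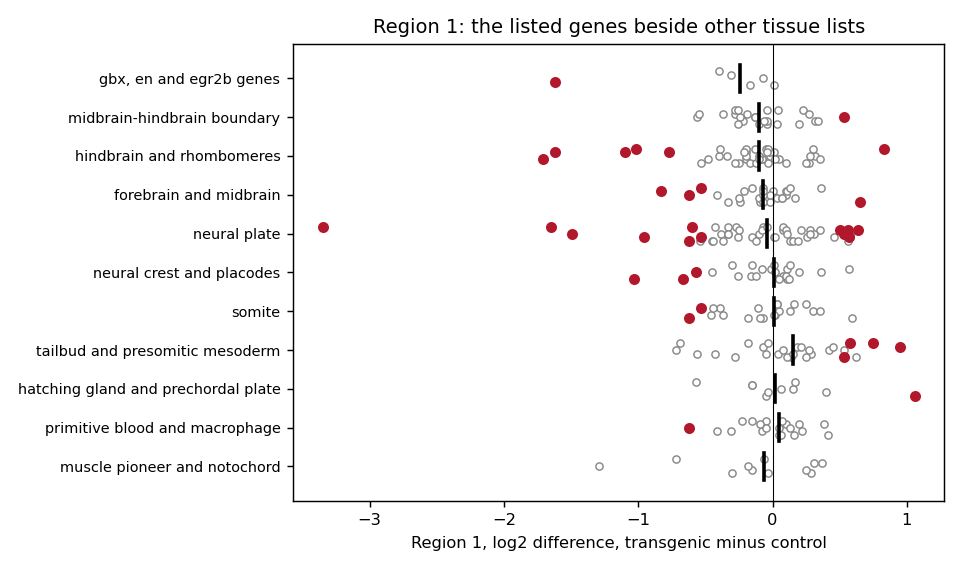
Log2 difference of transgenic minus control in Region 1 (x axis) for the 6 listed factors and the genes of 10 tissue lists, 1 row each. Filled points passed an adjusted p under 0.05 and black bars are medians. The median of the 6 factors is -0.24, those of the boundary and hindbrain lists are -0.10, and that of the tailbud and presomitic list is 0.15.

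Muscle pioneers and primitive blood can hold engrailed and *mafb* transcripts, respectively. Whether they do so at 3 to 4 somites was not assessed. Of 11 genes of the muscle pioneers and the notochord, 0 were called by limma in either region, although 7 had an unadjusted p under 0.05 in Region 1 and 3 in Region 2. Of all probe sets, 12.5% and 10.8% did. In Region 1 the smallest p of these 11 genes belonged to *noto*, at 3.90 in transgenic and 4.62 in control pieces (adjusted p = 0.0503 by limma). Of 20 genes of primitive blood and macrophages, 1 was lower in Region 1 (*tal1*, -0.62) and 2 were lower in Region 2 (*tal1*, -1.30, and *cebpa*, -0.67). Of all probe sets, 0.344% were called lower in Region 1 and 0.4% in Region 2, and of named genes 0.645% and 0.872%.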

How the data were processed

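RNA of 12 pools was hybridised to a 1-colour Affymetrix zebrafish gene array. The deposited table holds log2 signals that the authors made in Expression Console, 1 value per probe set and array. For probe summary, background correction and normalisation, the method was not given in the sources used here. These values were used as deposited, so any shift between regions in the normalisation stays in them. Scanner signals were not used, and the number of arrays limits the precision.

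Gene names came from the array platform's annotation, brought up to date with a current gene table. Of 75212 probe sets, 29528 had 1 symbol, 1845 several and 43839 none. A gene was represented by its brightest probe set. R 4.3.3 with limma 3.58.1 (lmFit, eBayes) was fitted over all probe sets: 6 arrays for each region, and all 12 arrays in 4 groups for the difference of the effects and for the control regions. P-values are two-sided with Benjamini-Hochberg adjustment over all probe sets. A gene was called at an adjusted p under 0.05. With 3 arrays a group, the smallest p of an exact permutation test is 0.1, so none was used. The one-way test of the methods was an alternative. The fit was tested on simulated data. The methods name the arrays biological replicates. Arrays with the same replicate number were taken as unpaired.

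The genes and the lists were chosen with earlier results of these data known. Text names the listed factors, for those with a group mean above 5 the 3 genes with the highest Pearson r, and up to 4 genes per list with the smallest p. Alternatives varied the spread estimate, the scaling, the filter on dim probe sets, the probe sets tested, array weights, the replicate block, the samples in the fit and the arrays left out. Figures were drawn with Python 3.11.15.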

Additional observations from a re-analysis of the deposited data

Results flagged for a closer look

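The transgenic effect on *gbx2* differed between Region 1 and Region 2, by a test of the difference itself. Region 1 gave a log2 difference of -1.62 and Region 2 one of 0.21, and the gap of 1.83 between them had an adjusted p of 0.00133 by limma. With genotype and replicate number as a block across the regions, that adjusted p was 0.0355. All 3 transgenic arrays were below all 3 control arrays in Region 1, and the arrays overlapped in Region 2. The mean in control Region 2 was 4.15, and whether a fall as large as that in Region 1 could show from that level was not tested.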

How the results depend on the processing

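Among the 6 genes, the 1 call in Region 1 became 2 when only probe sets with 1 symbol were tested or all 12 arrays entered 1 fit, with *en2b* as the added gene (adjusted p = 0.0362 and 0.0311 by limma). In Region 2 the count of 0 became 1, *gbx1*, with dim probe sets left out, 1-symbol probe sets alone, identical probe sets counted once, and all 12 arrays in 1 fit (adjusted p = 0.0302, 0.0115, 0.0435 and 0.00968). For the difference between regions the count of 1 became 2 with probe sets of 1 symbol only, again through *gbx1* (adjusted p = 0.0455).

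Same-numbered transgenic and control arrays of a region did not deviate together (correlations -0.055 to 0.008). Same-numbered arrays of 1 genotype in the 2 regions correlated at 0.017 to 0.079, under the 0.1 set for taking numbers as pairs. Other numbers correlated at -0.076 to 0.028. A correlation under 0.1 does not exclude shared embryos. In a fit chosen after seeing the data, with genotype and number as a replicate block across the regions, the counts for the difference of the effects and for the control regions stayed at 1 and 4, with *gbx2* at 1.83 (adjusted p = 0.0355), while 23 probe sets in all were called for that difference, against 144 without the block. With the number alone as a replicate block, the count in Region 1 became 0, with *gbx2* at -1.62 (adjusted p = 0.0647), and 0 probe sets in all were called in either region; the other counts over the 6 genes stayed at 0, 1 and 4.

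Some differences near 0 changed sign. With an array left out, *gbx1* in Region 1 lay between -0.05 and 0.07, *en1b* in Region 1 between -0.20 and 0.08, *en1b* in Region 2 between -0.03 and 0.06, *en2a* in Region 2 between -0.04 and 0.11, *egr2b* in Region 2 between -0.03 and 0.05, and the difference of the effects on *en1b* between -0.06 and 0.21. *en1b* in Region 2 was -0.02 as the mean of its probe sets. Between control regions, *en2a* was -0.01 and -0.05 with arrays centred on the median of all or of named probe sets, and *en2b* was 0.18 and 0.14 (adjusted p = 0.0896 and 0.182). The count of 4 between control regions became 5 without control replicate 2 of Region 1, where *en1b* passed (0.42, adjusted p = 0.0204). The causes were not tested. Over all probe sets, 381 were called in Region 1 and 352 in Region 2, and these counts ran from 0 to 1181 and from 0 to 1300 over the alternatives. With 1 array left out they fell to between 30 and 46 and between 16 and 78, while *gbx2* kept its call in Region 1.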
